A study of Oryza sativa with 24 samples.

Results

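Tricellular pollen (TCP) was compared with bicellular pollen (BCP) of rice, the step at which the generative cell divides at pollen mitosis II and leaves a pollen grain with a pair of sperm cells inside the vegetative cell. The comparison took the 3 arrays labelled TCP and the 3 labelled BCP, out of 24 arrays of 8 tissues, and all 57258 rice probe sets of the array, with 123 array controls left out. All material was of cultivar Zhonghua 10 (Oryza sativa ssp. japonica) with no mutation, and TCP and BCP came from plants grown outdoors in Beijing in the natural season. Roots and leaves came, per the methods, from seedlings of a climate chamber, and callus was induced from seeds on a medium with 2,4-D, an auxin-type growth regulator. TCP was released by crushing anthers in mannitol and passed through mesh. BCP was released in the same way and then also centrifuged and taken from 1 layer of a Percoll step gradient, so the purification and the stage cannot be told apart in any result that follows. The study describes BCP as the less pure of both fractions and the arrays of a tissue as independent biological replicates. The other 18 arrays held uninucleate microspores (UNMs), mature pollen grains (MPGs), germinated pollen grains (GPGs), callus, root and leaf, and served for the estimate of the spread and as a description of the course before and after this step.

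The first pollen mitosis turns a microspore into bicellular pollen. The grain then fills with starch, and the vegetative cell stocks the transcripts and proteins for the pollen tube. The tube grows at its tip. This growth draws on sugar import, on potassium, calcium, proton and water flux across the plasma membrane and the vacuole, on wall polysaccharides secreted at the apex, and on calcium-dependent kinases, phosphatases and actin that steer secretion. In anthers the sugar reaches pollen from the tapetum and the locule, since pollen has no plasmodesmata to the surrounding tissue.

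Signals are on the authors' linear scale, with a trimmed mean of about 500 on every array. Log2 fold changes are TCP over BCP on log2(signal + 50), given ± the standard error (SE), and p-values are those of limma across all probe sets with Benjamini-Hochberg adjustment. The offset of 50 understates the change of dim probe sets. A transcript is said to have risen or fallen at an adjusted p below 0.05 and a log2 fold change of at least 1 in size. The level of 1 gene cannot be set against that of another on such arrays, and less RNA per grain cannot be told apart from fewer grains of a kind.

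Of 47589 probe sets with a signal of 100 in at least 3 arrays, 4874 (10.2%) rose in TCP and 6138 (12.9%) fell, 23.1% together. More transcripts fell, but the largest changes were rises. A log2 fold change of 3 or more was found for 756 rises and 286 falls, and of 5 or more for 286 rises and 1 fall. The largest rise was 9.07 and the largest fall −5.44. The median of the rises was 1.57 and that of the falls −1.66, while the median over all tested probe sets was 0.14 and the median SE 0.38. All 3 TCP arrays lay above all 3 BCP arrays for 21.0% of the tested probe sets and below them for another 21.0%. Among calls the groups were separate for 4657 of the 4874 rises and 6054 of the 6138 falls. Separate groups of a called gene, where given below, therefore add little to its call. The risen probe sets had a median mean signal of 820.2 in TCP and 137 in BCP, and 2148 of them had a BCP mean under 100. For fallen ones the medians were 258 in TCP and 1082 in BCP, and 1574 had a TCP mean under 100. Of all calls 44.3% were rises. This share depended on the scaling: it was 28.6% with all arrays set to the same median, 33.8% with arrays scaled to the hybridisation controls and 21.0% with scaling to the poly-A controls. The median over all tested probe sets then lay at −0.05, 0.04 and −0.09. Of 197 probe sets that the naming rule covers 34 lost their call with the poly-A scaling. Among the genes described below these were the rises of TPK2, HAK18, HAK15, CAX2, ABCG39, UGE-2, CESA3, BC1L6, IRX9L, EXPB10, Cht4, CML11, CML28, CML32, SAPK4, IPK1, SBE1, GWD3, DPE1, ADF9 and Villin-2 and the fall of ACA7, while no direction turned.

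**Figure D1:**
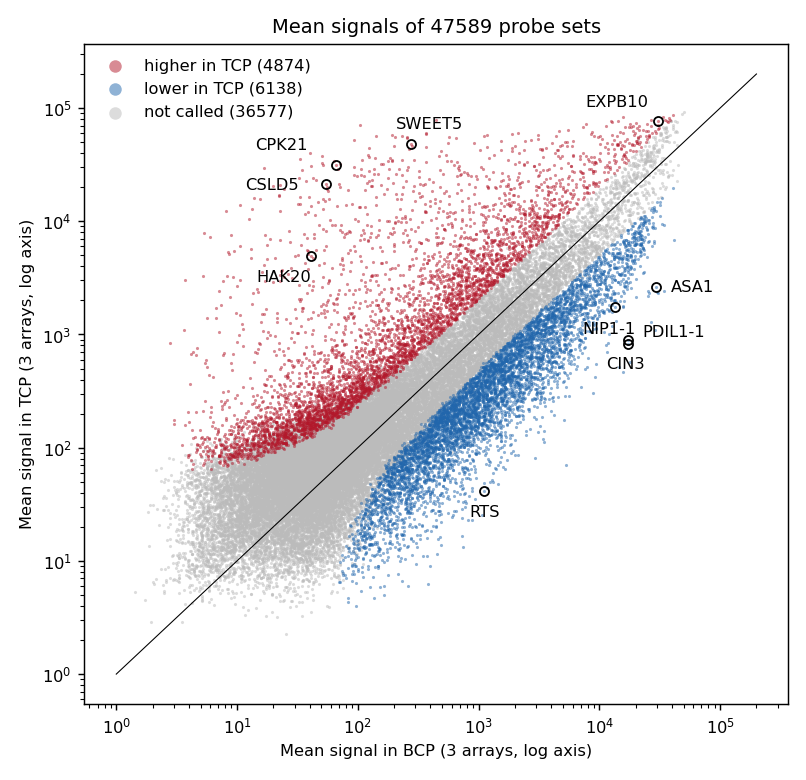
Mean signal in TCP (vertical axis) against mean signal in BCP (horizontal axis) for each of 47589 tested probe sets, both on log scales, with 3 arrays a group. Red points are the 4874 probe sets that rose, blue points the 6138 that fell and grey points the rest, and the labelled genes are members described in the text.

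The labels were set beside marker genes. Members were chosen with earlier results of these data known, so this is no independent check of the labels. Not all markers sought for the late vegetative cell matched a named probe set. Of the 4 that did, EXPB10, ADF9 and CML32 rose, and all of these calls were lost with scaling to the poly-A controls. EXPB9 had a log2 fold change of 0.89 ± 0.33 (adjusted p = 0.0476), under the limit of 1. The summed signal of these 4 markers ran from 191561 to 273447 on TCP arrays and from 79498 to 110506 on BCP arrays. Of 9 tapetum and anther wall markers none rose and 4 fell (GAMYB, RTS, CYP703A3 and CP1), with sums of 1128 to 1878 in TCP and 8146 to 9080 in BCP. Most of that sum was GAMYB, and 8 of the 9 had a mean under 100 in TCP, 4 of the 9 in BCP. The part of tapetal RNA in the falls was not tested. Green-tissue markers summed to 672 to 1198 in TCP and 450.0 to 683 in BCP, against 93035 in leaf. The names of sperm-cell genes sought (GCS1, GEX2, GEX1, DUO1, LGC1) matched no probe set here, so no germ-line marker was measured. Pearson's r between log2 signals was 0.925 to 0.942 within TCP, 0.952 to 0.967 within BCP and 0.790 to 0.834 between both groups, over probe sets, which are not independent. The third TCP array and the third BCP array had the lowest medians of their groups, 63.3 against 105.2 and 96.1 within TCP, and 51.3 against 77.1 and 72.2 within BCP.

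Among genes of sugar uptake and sucrose cleavage some rose and others fell. SWEET5, a member of the SWEET family of sugar facilitators, had signals of 48901, 58827 and 37069.6 in TCP, against 181, 510.2 and 132 in BCP, a log2 fold change of 7.37 ± 0.41 (adjusted p = 8.62e-12). SWEET6A went the other way, with 829, 1172 and 622 in TCP, against 6846, 7298 and 6907 in BCP (−2.98 ± 0.35, adjusted p = 1.07e-06). In neither gene did the groups overlap. The sucrose/proton symporter gene SUT1 had 8139, 6231 and 7130.4 in TCP, against 813, 578 and 712 in BCP (3.27 ± 0.52, adjusted p = 4.2e-05), and the monosaccharide transporter gene MST5 had 19362, 20827 and 23824 in TCP, against 2981, 3196 and 3728 in BCP (2.67 ± 0.29). Both rose in all 3 arrays over every BCP array.

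Genes of the enzymes that split sucrose likewise included rises and falls. NIN3, a neutral invertase of the cell interior, had 14037, 17459.7 and 18197 in TCP, against 319.5, 262 and 435 in BCP (5.43 ± 0.23, adjusted p = 1.02e-13). CIN3, an invertase bound to the cell wall, was the named gene with the largest fall, with 628, 1022 and 841 in TCP, against 19274, 16409.8 and 16107 in BCP (−4.32 ± 0.42, adjusted p = 6.18e-08). CIN7, another wall invertase, fell by 1.61 and SUS4, a sucrose synthase gene, by 2.02, and the groups of both stood apart. The invertase whose transcript rose acts inside the cell, and those whose transcripts fell act in the wall. Over the list of sugar transporters, invertases and sucrose synthases, 5 of 36 tested probe sets rose (13.9%) and 7 fell (19.4%), with a median of −0.00. Over all probe sets 10.2% rose and 12.9% fell, with a median of 0.14. In the step that feeds sugar into wall polymers the balance leaned down: of 27 probe sets of hexokinases and UDP-sugar enzymes 3 rose and 8 fell. UGE-2, a UDP-glucose epimerase gene, rose (1.65), and the UDP-glucose dehydrogenase genes UGD5 (−2.49), UGD4 (−1.81) and UGD3 (−1.38) fell. A sucrose transporter gene known here only through the study's annotation, LOC_Os10g26470, had means of 28399.8 ± 1562 in TCP and 2985 ± 194 in BCP (SD, n = 3 each), 3.23 on the log2 scale. The study's list was chosen on these same arrays, so this direction is no independent evidence.

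The list of potassium and cation/proton transport held 41 tested probe sets, of which 4 rose (9.76%) and 7 fell (17.1%). Over all probe sets these shares were 10.2% and 12.9%. HAK20, of the HAK family of potassium transporters, had 4693, 4955 and 5062 in TCP, against 51.8, 65.5 and 4.7 in BCP (5.84 ± 0.30, adjusted p = 1.81e-12), so that its BCP signals were near the bottom of the scale. The tandem-pore potassium channel gene TPK2 rose more evenly, with 6353, 6318 and 6489.6 in TCP, against 1558, 1509 and 1584 in BCP (2.01 ± 0.18). HAK18 rose by 1.76. HAK7, at 465, 351 and 308 in TCP, against 1336, 1288 and 1216 in BCP, fell (−1.66 ± 0.39, adjusted p = 0.00243), and HAK26 fell by 1.25 (adjusted p = 0.0119), a call that was lost without the first TCP array (−1.07, adjusted p above 0.05). Other family members were bright in both stages and passed no limit: HAK5 averaged 33146 ± 5419.7 in TCP and 24061 ± 4889 in BCP (SD, n = 3 each), a log2 fold change of 0.47, and HAK2 10579.5 ± 326 in TCP and 10485 ± 588 in BCP (0.01).

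Cation/proton antiporters and the plasma membrane proton pump carried some of the largest rises of ion transport. These genes have no informative RefSeq name and were identified only through the study's own list of stage-enriched genes, which was chosen on these same arrays, so their direction is no independent evidence. LOC_Os02g55400, a plasma membrane proton ATPase, had 38899, 32843 and 33449 in TCP, against 343, 248 and 280.3 in BCP (6.69 ± 0.24). The CHX15-type antiporter genes LOC_Os11g01820 (8762, 6284 and 8366 in TCP, against 125, 115 and 149 in BCP) and LOC_Os05g39600 (18274, 9765 and 17513 in TCP, against 493, 358 and 346 in BCP) rose by 5.44 and 5.04. LOC_Os02g49790, annotated as an ALMT-type malate channel, averaged 1817 ± 194 in TCP and 7.43 ± 2.60 in BCP. The amino acid transporter genes LOC_Os02g49510 (5.57) and LOC_Os06g36210 (5.43) rose as well, and the potassium transporter gene LOC_Os01g27170 fell (−3.27). The 1 named proton pump probe set, the vacuolar pyrophosphatase VATP-P1, averaged 28986 ± 1497 in TCP and 22931 ± 3602 in BCP (0.35, not called).

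Calcium pumps, exchangers and channels leaned to falls, with 1 rise and 7 falls among 17 probe sets and a median of −1.11. The rise in this list was CAX2, a vacuolar calcium/proton exchanger, with 1373, 1264 and 1429.5 in TCP, against 402, 413 and 469 in BCP (1.56 ± 0.21, adjusted p = 6.08e-06). NCL1, a sodium/calcium exchanger-like gene with EF hands, fell, with 156, 346 and 256 in TCP, against 2374, 2318 and 2281 in BCP (−3.02 ± 0.31). MHX1, a magnesium/proton exchanger gene, fell by 1.54 and ACA7, a calcium ATPase gene, by 1.23. ACA7 was lower in TCP (267) than in BCP (689.7), while its later means were 1553 in MPGs and 1445 in GPGs. Another calcium ATPase gene, ACA1, averaged 17588 ± 891 in TCP and 9463 ± 68.8 in BCP (0.89, not called). Outside the list, LOC_Os03g10640, a plasma membrane calcium ATPase named only through the study's table, had 10024, 9644 and 12338 in TCP, against 3618, 4868 and 4199 in BCP, and rose (1.33 ± 0.25, adjusted p = 0.000234). As that table was chosen on these same arrays, its direction is no independent evidence.

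Water channels included 6 rises and 4 falls among 30 probe sets, with a median of 0.55. SIP2-1, a small basic intrinsic protein, had 9258, 11941 and 9789 in TCP, against 82.8, 71.1 and 21.7 in BCP (6.62 ± 0.28, adjusted p = 7.96e-14). TIP2-1, an aquaporin of the vacuolar membrane, had 20841, 13331 and 21849 in TCP, against 442, 691 and 478 in BCP (4.99 ± 0.26), and TIP4-1 rose on 1 probe set (3.27 ± 0.25), while the other probe set of TIP4-1 averaged 3598 in TCP and 3835 in BCP (−0.08). NIP1-1, of the nodulin-26-like group, fell, with 1577, 2018 and 1682 in TCP, against 12438, 16009 and 12211 in BCP (−2.91 ± 0.21, adjusted p = 6.06e-10). The tonoplast genes TIP2-2 (40850.0 in TCP, 29207 in BCP) and TIP1-2 (38769 in TCP, 26348 in BCP) were bright in both stages and not called. All 6 risen probe sets were dim to moderate in BCP, while these uncalled tonoplast genes were already bright there.

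**Figure D2:**
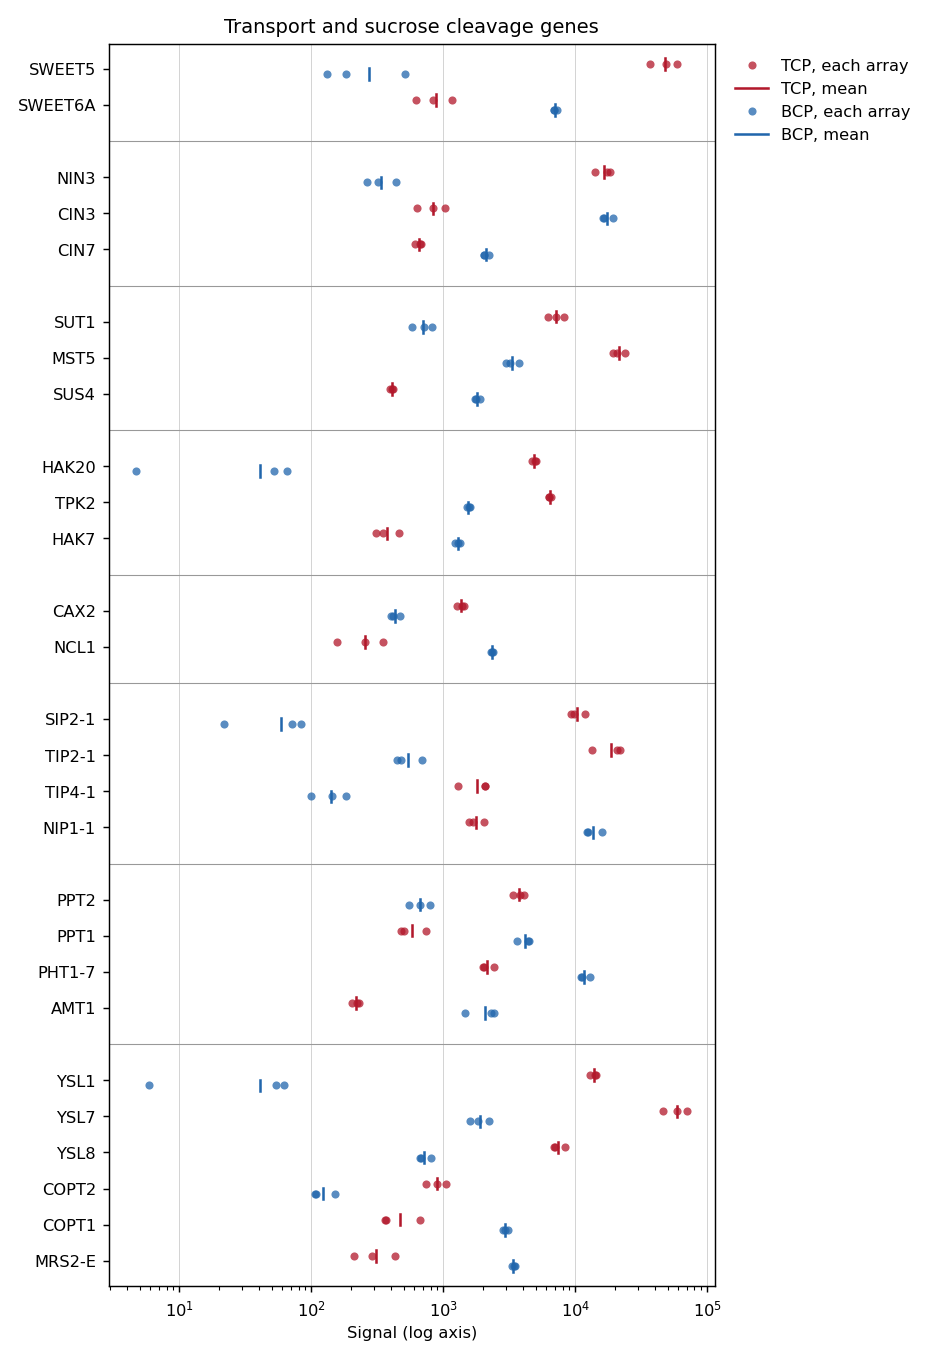
Signal on each of the 3 TCP arrays and the 3 BCP arrays (log scale) for transport genes described in the text, with TCP in the upper row of each gene. For every gene shown the TCP points and the BCP points do not overlap, as was so for most called probe sets. Rises include SWEET5, YSL1 and SIP2-1, and falls include CIN3, SWEET6A and NIP1-1.

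Among carriers of nitrogen and phosphate 4 of 34 probe sets rose (11.8%) and 3 fell (8.82%), beside 10.2% and 12.9% over all probe sets. The ammonium transporter gene AMT1 had 228, 223 and 203 in TCP, against 2422, 1468 and 2301 in BCP (−2.95 ± 0.30, adjusted p = 9.13e-08), and the phosphate transporter gene PHT1-7 had 1995, 2034 and 2425 in TCP, against 11109, 11216 and 12873 in BCP (−2.42 ± 0.37). Both fell in every TCP array below every BCP array. Among phosphoenolpyruvate/phosphate translocators of the plastid envelope PPT2 rose, with 3832, 3381 and 4065 in TCP, against 545, 660.3 and 796 in BCP (2.42 ± 0.20). PPT1 fell, with 479.5, 739.9 and 503 in TCP, against 4444, 4344 and 3647 in BCP (−2.77 ± 0.38).

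Metal transporters had 11 rises and 7 falls among 58 probe sets, with a median of 0.30, but 5 and 8 with scaling to the poly-A controls. YSL1, of the yellow stripe-like carriers of metals bound to nicotianamine, had 14351, 14039 and 12844 in TCP, against 5.9, 54.1 and 62.4 in BCP (7.31 ± 0.31, adjusted p = 6.79e-14). YSL7 was already present in BCP, with 58519.5, 70469.5 and 46603 in TCP, against 1588, 2223 and 1829 in BCP (4.92 ± 0.33). The probe set annotated as YSL8 rose by 3.29, but the study's table gives it as a transposon protein, so its identity is uncertain. Of the copper carriers COPT2 rose, with 894, 734 and 1056 in TCP, against 106, 151 and 108 in BCP (2.46 ± 0.22). COPT1 fell, with 669.5, 366 and 361 in TCP, against 3074, 2917 and 2836 in BCP (−2.59 ± 0.47). The magnesium transporter gene MRS2-E fell by 3.31 and Nramp1, a metal ion transporter gene, by 1.86, both with separate groups. Of 15 ABC transporter probe sets 1 rose and 2 fell. ABCG39 rose (1.33 ± 0.23), while ABCG42, with 67.7, 9.8 and 68.4 in TCP, against 1030.1, 911 and 1358 in BCP (−3.59 ± 0.36), and STAR2, the membrane part of an ABC transporter of aluminium tolerance, with 133, 177 and 40.5 in TCP, against 1768, 2267 and 2002 in BCP (−3.72 ± 0.39), fell to signals near the bottom of the scale. Mitochondrial porins, which pass metabolites through the outer membrane, showed 1 fall among 8 probe sets, VDAC2 (−2.02 ± 0.29), while VDAC5 averaged 20359 ± 935 in TCP and 22270.4 ± 2848 in BCP.

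Over the lists of wall building and loosening 31 of 205 probe sets (15.1%) rose and 22 (10.7%) fell. These lists include the hexokinases and UDP-sugar enzymes described above, with 3 of the rises and 8 of the falls. They also include the chitinases, with 8 of the rises and 0 of the falls. Without the list of BURP proteins, drawn up after its values were seen, 29 of 198 rose and 22 fell. The balance turned with the scaling, to 23 rises and 28 falls with all arrays at the same median and to 13 and 21 with scaling to the poly-A controls. CSLD5, of the cellulose synthase-like D family, whose members act in tip-growing cells, had 20533, 17728 and 25269.9 in TCP, against 63.9, 40.3 and 59.7 in BCP (7.66 ± 0.26, adjusted p = 2.29e-15). CSLC9, of the CSLC family that makes the glucan backbone of xyloglucan in Arabidopsis, had 21336, 21628 and 22901 in TCP, against 177, 198 and 208 in BCP (6.49 ± 0.22, adjusted p = 2.05e-15). Both genes were dim in BCP and bright on all 3 TCP arrays. The cellulose synthase gene CESA3 rose less, with 10537, 11942 and 10537 in TCP, against 2545, 3145 and 2806 in BCP (1.94 ± 0.23). Among 42 other probe sets of hemicellulose synthesis 7 rose and 5 fell. The xylan glycosyltransferase genes GT43A (2.57 ± 0.26) and IRX9L (1.71 ± 0.18) rose and CSLF8, of the family that makes mixed-linkage glucan, fell (−2.10 ± 0.41). COBRA-like genes moved in both directions, BC1L6 up (1.58 ± 0.43) and BC1L9 down (−1.71 ± 0.43).

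Expansins, which loosen walls, had 3 rises and no fall among 31 named probe sets. The risen share of 9.68% was close to the 10.2% over all probe sets. EXPA32 had 40509.6, 51606 and 35825 in TCP, against 839, 1313 and 932 in BCP (5.32 ± 0.36, adjusted p = 2.41e-10), and EXPA26 had 29645, 38978 and 26213 in TCP, against 1868, 3340.0 and 1862 in BCP (3.75 ± 0.31). EXPB10, a group-1 grass pollen allergen type of beta-expansin, was bright in both stages, with 81291, 90429.8 and 58074 in TCP, against 34710.1, 32352 and 24939 in BCP (1.31 ± 0.30). It was no longer called with all arrays at the same median (0.92), after quantile normalization (0.39) or with scaling to the poly-A controls (0.84). Expansin genes named only through the study's table also included falls, LOC_Os03g06000 (365, 497 and 298 in TCP, against 4396, 4612 and 4301 in BCP) and LOC_Os04g46650 (−3.14). Those expansins are not counted among the 31 named probe sets, and their table was chosen on these same arrays, so their direction is no independent evidence.

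Chitinases, hydrolases best known from defence, rose on 8 of 16 probe sets and fell on none, with a median of 1.27. Cht1 had 919, 1041 and 959 in TCP, against 108, 218 and 206 in BCP (2.21 ± 0.52), Cht5 had 1194, 795 and 1380.1 in TCP, against 276, 164 and 258 in BCP (2.04 ± 0.43) and Cht4 had 2088, 1251 and 2430.3 in TCP, against 453, 551 and 618 in BCP (1.70 ± 0.45, adjusted p = 0.00577). The levels were moderate and the TCP arrays spread widely. Glucanases and other wall hydrolases had 4 rises (7.14%) and 6 falls (10.7%) among 56 probe sets, both below the shares over all probe sets. GLU14, an endoglucanase gene, had 186, 281 and 217 in TCP, against 1628, 2170.0 and 2391 in BCP (−2.92 ± 0.30, adjusted p = 1.34e-07), and BGLU6, a beta-glucosidase gene, had 1262, 1824 and 1538 in TCP, against 7867, 8135 and 7799 in BCP (−2.34 ± 0.37). Both fell with separate groups. The list of pectin enzymes and inhibitors by name had 2 tested probe sets, with 0 rises and 0 falls. Other pectin genes were named only through the study's table, whose genes were chosen on these same arrays, so their direction is no independent evidence. There the pectin acetylesterase LOC_Os04g51340 averaged 19034 ± 1886 in TCP and 718 ± 101 in BCP, and the pectinesterase inhibitors LOC_Os08g04650 (2.95) and LOC_Os01g14940 (2.51) and the pectate lyase LOC_Os06g38510 (2.26) rose, while the polygalacturonase LOC_Os09g31270 fell (−1.86).

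Signalling genes changed often and in both directions, with 65 of 327 probe sets (19.9%) risen and 49 (15.0%) fallen. Calcium-dependent protein kinases, which bind calcium and phosphorylate targets in a single protein, held the named gene with the largest rise. CPK21 had 26478, 40767 and 27881 in TCP, against 16.2, 103 and 80.0 in BCP (8.15 ± 0.33, adjusted p = 4.21e-14), and CPK2 had 42451, 58966 and 36948 in TCP, against 229, 404 and 210.0 in BCP (7.14 ± 0.26). CPK22 had 37347, 52543 and 38192 in TCP, against 1202, 1897 and 1530.4 in BCP (4.75 ± 0.29), and CPK29 rose by 4.39. CPK21 was near the bottom of the scale in BCP, whereas CPK22 and CPK29 were already well above the dim range there. CPK8, with 111, 142 and 126 in TCP, against 962, 631 and 851 in BCP (−2.28 ± 0.31), and CPK3, with 137, 239.7 and 133 in TCP, against 654, 551 and 638 in BCP (−1.62 ± 0.23), fell. In all 6 probe sets rose and 7 fell of 22, with a median of −0.01.

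CBL calcium sensors and the CIPK kinases they recruit were split likewise, 8 up and 12 down of 42. CIPK20 had 26256, 19224 and 25467 in TCP, against 463, 385 and 328 in BCP (5.74 ± 0.30, adjusted p = 2.45e-12), CIPK30 had 23853, 28729 and 26145 in TCP, against 445, 567 and 504 in BCP (5.57 ± 0.28) and CIPK5 had 51335, 61358 and 40822 in TCP, against 1397, 1760.2 and 1417 in BCP (5.01 ± 0.26). These kinases were all dim to moderate in BCP and bright in TCP. CIPK25 fell, with 2335, 1954 and 2424 in TCP, against 9228, 8188 and 9708 in BCP (−1.99 ± 0.36). Among the sensors CBL9 rose, with 4079, 3841 and 3734 in TCP, against 861, 637 and 792 in BCP (2.28 ± 0.39). CBL3 fell, with 873, 1115 and 722 in TCP, against 6901, 7246 and 6249 in BCP (−2.86 ± 0.47, adjusted p = 6.58e-05). CBL6 averaged 14058 ± 143 in TCP and 13734 ± 501 in BCP (0.03). Calmodulin-like genes had 6 rises and 2 falls among 31 probe sets, but 4 and 5 with all arrays at the same median and 1 and 2 with scaling to the poly-A controls. CML15 rose, with 18792, 21213 and 18424 in TCP, against 1724, 1922 and 1778 in BCP (3.39 ± 0.21). CML18 fell (−1.31 ± 0.35).

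**Figure D3:**
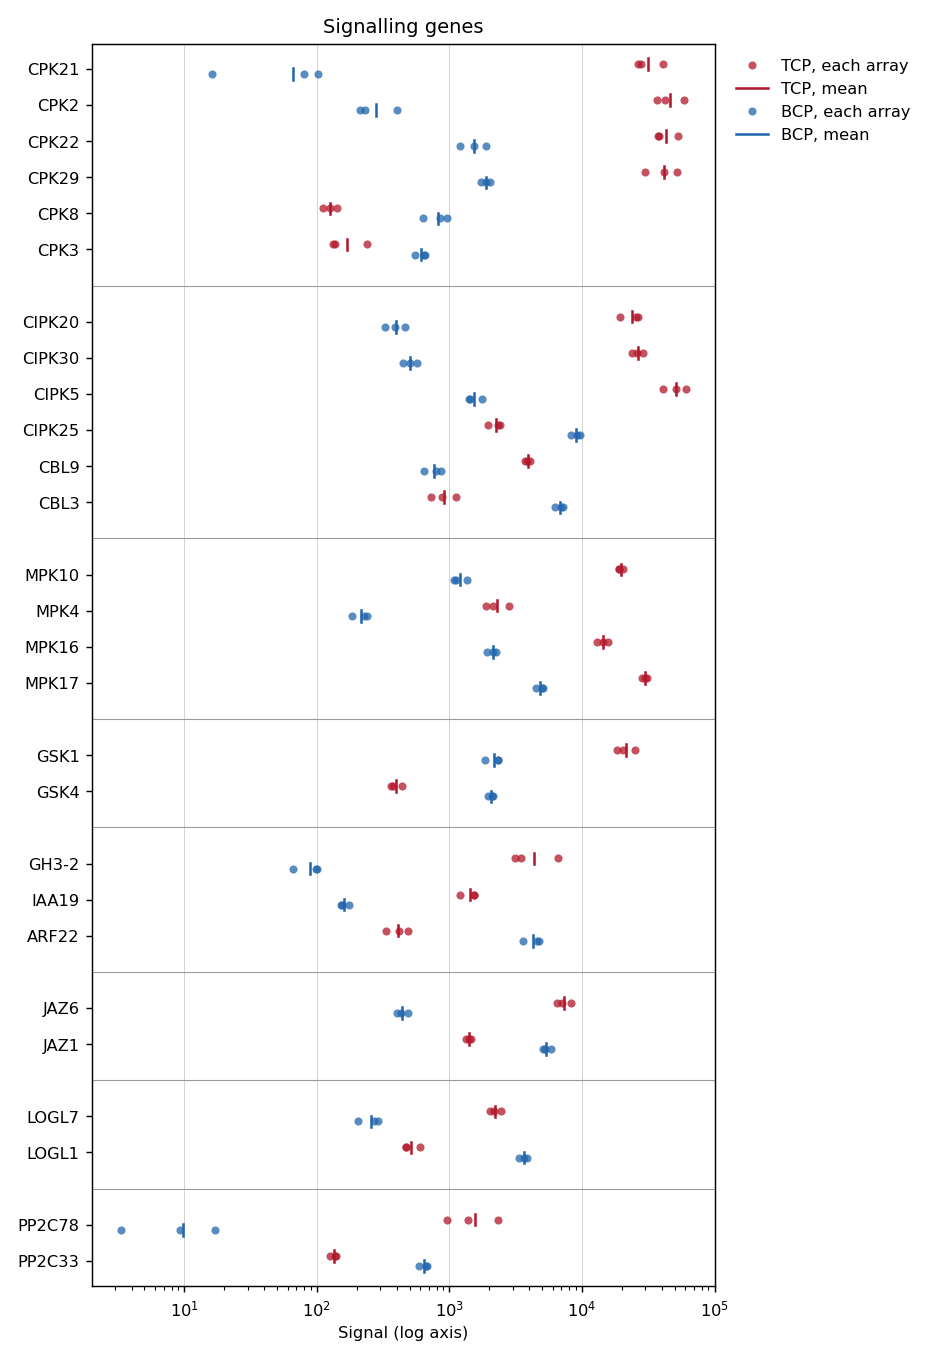
Signal on each of the 3 TCP arrays and the 3 BCP arrays (log scale) for kinases, sensors, phosphatases and hormone genes described in the text, with TCP in the upper row of each gene. CPK21 and CPK2 have the widest gaps between TCP and BCP, and CBL3, CIPK25, GSK4 and ARF22 lie lower in TCP.

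MAP kinase cascade genes had 6 rises and 3 falls among 19 probe sets. MPK10 had 19063, 20545 and 19087 in TCP, against 1089, 1118 and 1365 in BCP (3.99 ± 0.19, adjusted p = 6.1e-13), MPK4 had 1871, 2131 and 2829 in TCP, against 225, 182 and 238 in BCP (3.12 ± 0.24) and MPK17 had 28499, 30913 and 29714 in TCP, against 4458, 5009 and 5095 in BCP (2.60 ± 0.19). MPK16 rose by 2.73. The groups of these genes stood apart, and the falls of the list (MPK7, MPK11 and MPK13, named after their values were seen) all had a mean under 500 in both stages. Protein phosphatases of type 2C, which dephosphorylate kinases of stress and hormone pathways, had 17 rises and 8 falls among 69, but 8 and 10 with scaling to the poly-A controls. PP2C78 had 962, 2310.0 and 1378 in TCP, against 9.2, 3.3 and 16.9 in BCP (4.66 ± 0.26), PP2C15 had 13154, 16836 and 16589 in TCP, against 1405, 1993 and 1549 in BCP (3.20 ± 0.20), and PP2C33 had 139.6, 138 and 125 in TCP, against 586, 676 and 671 in BCP (−1.91 ± 0.31). Of the GSK3-like kinases GSK1 rose, with 20328, 25309 and 18522 in TCP, against 2309, 1868 and 2307 in BCP (3.27 ± 0.21). GSK4 fell, with 375, 442 and 362 in TCP, against 2124, 2111 and 1941 in BCP (−2.26 ± 0.21). SAPK4, a stress-activated SnRK2 kinase gene, rose (1.71 ± 0.19) and SNRK1B, a kinase of energy sensing, fell (−1.21 ± 0.22).

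The 14-3-3 proteins, which bind phosphorylated targets, showed 3 falls and no rise among 7 probe sets. GF14B had 239, 681 and 321 in TCP, against 1281, 1111 and 1354 in BCP (−1.60 ± 0.27), GF14E had 159, 215 and 171 in TCP, against 749, 764 and 776 in BCP (−1.82 ± 0.25) and GF14A averaged 442 ± 158 in TCP and 1299.9 ± 157 in BCP, also called. The second TCP array of GF14B lay well above the other TCP arrays and still below every BCP array. The brighter genes GF14F (62445 in TCP, 36336 in BCP) and GF14D (34245 in TCP, 25893 in BCP) were not called. Of 9 probe sets of Rac/Rop GTPases, the switches of polar growth, none rose or fell, and the bright member RAC6 averaged 36727 ± 6434 in TCP and 24673 ± 3876 in BCP (0.57). In phosphoinositide and phospholipase signalling IPK1, an inositol phosphate kinase gene, rose (1.35 ± 0.20), and pla2-I (−1.76 ± 0.37) and ITPK2 (−1.22 ± 0.25) fell.

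Hormone genes included auxin, jasmonate and cytokinin components. GH3-2, which conjugates auxin to amino acids, had 3478, 6559.5 and 3098 in TCP, against 99.1, 100.4 and 65.8 in BCP (4.93 ± 0.25, adjusted p = 1.52e-12). ILL2, of the family that releases auxin from such conjugates, had 29255, 28678 and 29708 in TCP, against 159, 109.9 and 139 in BCP (7.31 ± 0.18, adjusted p = 1.12e-16). Both genes had BCP signals under 200 on every array. The Aux/IAA repressor gene IAA19 rose (2.80 ± 0.26), and IAA3 fell (−2.06 ± 0.31). The auxin response factor gene ARF22 fell, with 418, 482 and 334 in TCP, against 4562, 3596 and 4722 in BCP (−3.24 ± 0.30), and ARF10 fell by 2.31. Of 60 probe sets of Aux/IAA, ARF and GH3 genes 6 rose (10%) and 5 fell (8.33%), beside 10.2% and 12.9% over all probe sets. JAZ repressors of jasmonate response rose on 6 of 15 probe sets and fell on 1, with 3 rises after quantile normalization and 1 with scaling to the poly-A controls. The gene listed as JAZ6 (TIFY10A) had 8188, 6471 and 7091 in TCP, against 489, 403 and 434 in BCP (3.89 ± 0.25), and the one listed as JAZ1 (TIFY3) had 1338, 1459 and 1401 in TCP, against 5058, 5811 and 5294 in BCP (−1.91 ± 0.36). Of the LOG enzymes, which release active cytokinin, LOGL7 rose, with 2016, 2439.7 and 2149.6 in TCP, against 269.8, 203 and 289 in BCP (2.90 ± 0.24). LOGL1 fell, with 467, 597 and 468 in TCP, against 3374, 3823 and 3682 in BCP (−2.72 ± 0.24).

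Storage genes rose on 13 of 78 probe sets (16.7%) and fell on 7 (8.97%). The rises include several probe sets of 1 gene and several dim ones, as given below. In starch synthesis the 4 rises among 22 probe sets were all of SBE1, the starch branching enzyme I gene, led by 15041, 14331 and 12769.5 in TCP, against 4163, 3669 and 3252 in BCP (1.92 ± 0.18, adjusted p = 3.2e-08). SS1, the soluble starch synthase I gene, fell, with 2951, 2845 and 2640.2 in TCP, against 7924, 6939 and 6282 in BCP (−1.31 ± 0.29). GBSS-I, the granule-bound synthase of amylose, was bright in both stages on its brightest probe set, 24386 ± 2406 in TCP and 23384 ± 4642 in BCP (0.07). Of its other tested probe sets 3 bright ones had all TCP arrays below all BCP arrays, with means of 9096 in TCP and 15368 in BCP (−0.75), 4602 in TCP and 8616 in BCP (−0.89) and 8547 in TCP and 13006 in BCP (−0.60), and none was called. Starch and trehalose metabolism had 3 rises and no fall among 19 probe sets. GWD3, a glucan water dikinase-type gene whose enzyme phosphorylates starch, had 21534, 18727 and 23910.2 in TCP, against 5282, 5846 and 5375 in BCP (1.94 ± 0.21), and DPE1, the plastid disproportionating enzyme gene, had 15699.5, 18727 and 16872 in TCP, against 2983, 4006 and 4332 in BCP (2.18 ± 0.20). TPP10, a trehalose-phosphate phosphatase gene, rose by 2.33. An alpha-amylase gene named through the study's table, LOC_Os01g51754, had 15139, 17383 and 17375 in TCP, against 35.9, 8.7 and 22.1 in BCP on its brighter probe set. That table was chosen on these same arrays, so the direction is no independent evidence. The alpha-amylase probe sets of the list itself were not called.

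Lipid genes moved apart within a family of galactolipid synthesis. MGD3, a monogalactosyldiacylglycerol synthase gene, had 23307, 39245 and 23506 in TCP, against 163, 261 and 121 in BCP (6.95 ± 0.24, adjusted p = 3.69e-15), while MGD1 of the same family fell, with 1949, 2292 and 2088 in TCP, against 4348, 4768 and 5242 in BCP (−1.16 ± 0.22). The acyl-CoA-binding gene ACBP4 had 230.1, 372 and 130.2 in TCP, against 1598, 1369.6 and 1399 in BCP (−2.44 ± 0.36). Of 16 probe sets of oil bodies, lipid transfer and acyl-CoA binding 3 rose and 4 fell. The rises besides MGD3 were dim, LTP with a mean of 83.6 in TCP and a probe set of LTP2-B with 158. The fall of LTPL1 was dim too, at 178 in BCP. Seed storage and LEA genes were mostly uncalled, 3 up and 1 down of 21. RA5 rose at a TCP mean of 171 and a probe set of RAB21 at 372. The globulin gene GLB fell (−2.47 ± 0.36). The brightest rise sat on a probe set annotated as the glutelin GLUA-2 (3.93 ± 0.26), which the study's table gives as a GATA-type factor, so its identity is uncertain.

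Beyond these groups, 3 of the 10 named genes with the largest rises served other functions. SPPL3, a signal peptide peptidase-like gene, had 18789.6, 19649.6 and 19239.5 in TCP, against 11.5, 42.6 and 19.7 in BCP (8.03 ± 0.22). The thioredoxin gene Trx20 had 21175, 31694 and 26296 in TCP, against 76.0, 223 and 111 in BCP (7.21 ± 0.31), and the glutamate dehydrogenase gene GDH2 had 31278, 32640.0 and 27074 in TCP, against 216, 337 and 226 in BCP (6.63 ± 0.21). All of them were bright on each TCP array and dim to moderate on each BCP array.

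Lists of cell machinery (protein synthesis and folding, cell cycle, proteasome, vesicle traffic, cytoskeleton, and amino acid and nucleotide synthesis) held 22 rises (6.06%) and 123 falls (33.9%) among 363 probe sets. Without the amino acid and nucleotide list, drawn up after its values were seen, they held 21 and 110 among 339. The falls were gathered in some of these lists. Protein disulfide isomerases, which fold secreted proteins in the endoplasmic reticulum, fell on 8 of 12 probe sets and rose on none (median −2.01). PDIL1-1 had 783, 1044 and 838 in TCP, against 19869, 16328 and 15538 in BCP (−4.21 ± 0.26, adjusted p = 3.5e-11), and PDIL1-4 had 205, 314 and 338 in TCP, against 5172, 5161 and 5307 in BCP (−3.99 ± 0.37). Ribosomal protein genes fell on 31 of 42 probe sets and rose on none (median −1.56), RPS4 for instance with 3344, 4877 and 3529 in TCP, against 19960.3, 18309 and 16559.7 in BCP (−2.22 ± 0.29). The fall was partial, since RPS4 remained well above the dim range on every TCP array. Translation factors fell on 9 of 15, with EF-1-beta at 4569, 4149.8 and 4801 in TCP, against 19919, 18953 and 18866 in BCP (−2.08 ± 0.21). The chaperone genes HSP81-3 (−2.44 ± 0.43) and HSP81-2 (−1.97 ± 0.21) fell among 13 of 47 heat shock probe sets. The lists of BURP proteins (2 rises and 0 falls of 7) and of amino acid and nucleotide synthesis (1 rise and 13 falls of 24) were drawn up after their values were seen. Within amino acid synthesis the anthranilate synthase genes of tryptophan synthesis fell, ASA1 with 2443, 3110.4 and 2316 in TCP, against 33449.6, 31305 and 24375 in BCP (−3.48 ± 0.34) and ASB1 with 2070.2, 2731 and 2137 in TCP, against 27896, 27529 and 22272 in BCP (−3.46 ± 0.24), and so did ATCase (−3.65), the first enzyme of pyrimidine synthesis.

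Cell cycle and replication genes fell on 22 of 82 probe sets and rose on 4. PCNA, the sliding clamp of DNA replication, had 192, 272 and 215 in TCP, against 1865, 1564 and 1823 in BCP (−2.71 ± 0.34), and CDKA-1, a kinase of both main cell cycle transitions, had 422, 563 and 471 in TCP, against 3774, 2673 and 2651 in BCP (−2.51 ± 0.33). Some kinases and cyclins rose in the same step: CDKF-4 had 44045, 49502 and 36773 in TCP, against 3776, 2914 and 3365 in BCP (3.67 ± 0.19, adjusted p = 1.66e-12) and the D-type cyclin gene CYCD5-2 had 5467, 7357 and 6212 in TCP, against 605, 506 and 637 in BCP (3.33 ± 0.22). Of 13 probe sets of dividing-cell markers 2 fell (PCNA and MCM2) and none rose, with a median of 0.08. Their sum was 4716 to 5256 in TCP and 8367 to 8507 in BCP. Most of its drop lay in PCNA (226 in TCP, 1751 in BCP) and CYCB2-1 (1469 in TCP, 3139 in BCP). The uncalled MCM3 (0.94), MCM7 (0.77) and CycB1-1 (0.97) had all TCP arrays above all BCP arrays. The uncalled CYCB2-1, CDKB2-1 and MCM6 had them below. The proteasome and ubiquitin list had 2 rises, the U-box ligase genes PUB4 (2.62 ± 0.22) and PUB12 (2.47 ± 0.27), and 7 falls among 33. Vesicle trafficking genes fell on 6 of 19 and rose on none, among them zeta1-COP (−1.19 ± 0.29) of the COPI coat.

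Cytoskeleton genes moved in both directions. Actin depolymerising factor ADF9 had 51387, 59824 and 44674 in TCP, against 12719, 14634 and 12215 in BCP (1.97 ± 0.28), and ADF10 had 2253, 2340.1 and 2170.1 in TCP, against 8761, 10633 and 8864 in BCP (−2.03 ± 0.56). The actin bundling gene Villin-2 rose, with 56221, 61441 and 41731 in TCP, against 19153, 16711 and 14753 in BCP (1.64 ± 0.20), as did the formin gene FH11 (2.90 ± 0.26), and the actin genes AC2 (−1.72 ± 0.20) and AC7 (−1.37 ± 0.26) fell. The brightest actin gene, AC1, averaged 75036 ± 17060.4 in TCP and 43864 ± 12188 in BCP (0.78, not called). Of 37 actin probe sets 7 rose and 6 fell, but 1 and 5 with scaling to the poly-A controls. The kinesin gene KIN7J had 12369, 15947 and 11821 in TCP, against 166, 79.5 and 70.4 in BCP (6.47 ± 0.22, adjusted p = 3.62e-15), and KIN7K rose (3.21 ± 0.19). TUB1, a beta-tubulin gene, fell (−1.43 ± 0.29), and tubulin and kinesin probe sets counted 7 rises (13.5%) and 8 falls (15.4%) of 52.

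**Figure D4:**
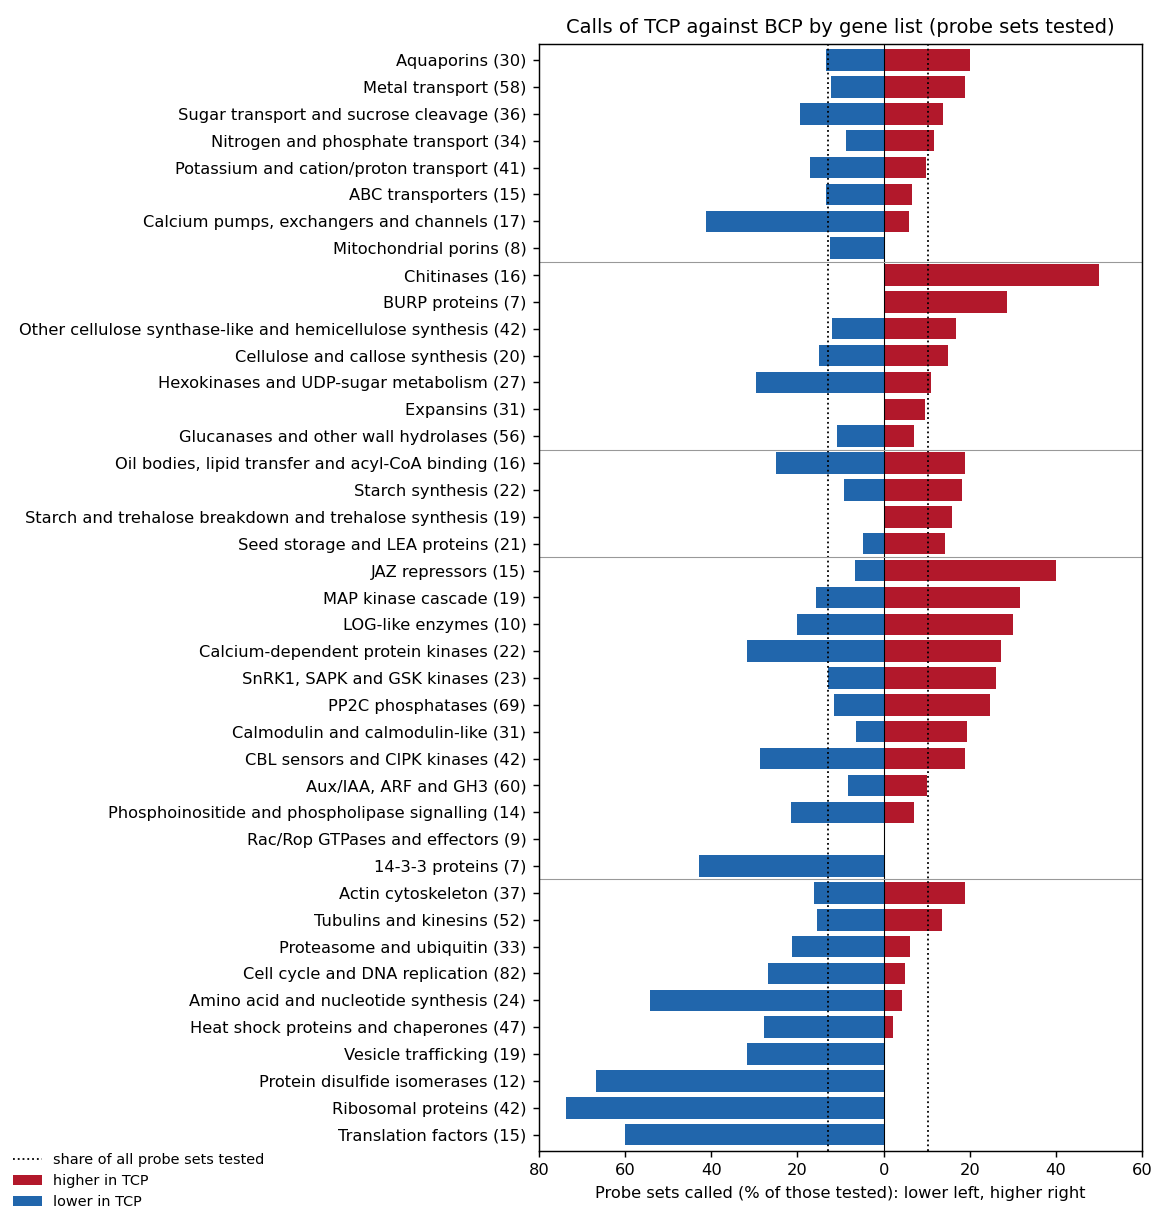
Percent of tested probe sets that rose (to the right) or fell (to the left) in TCP over BCP for each list with at least 7 tested probe sets, grouped by function, with dotted lines at the shares over all probe sets, 10.2% risen and 12.9% fallen. Chitinases and JAZ repressors have the highest shares of rises (JAZ repressors with 6 rises here and 1 with scaling to the poly-A controls), and ribosomal proteins, protein disulfide isomerases and translation factors lie at the far end of falls.

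Of 45 lists 30 had members that rose and members that fell, 5 had rises only, 6 had falls only and 4 had no call. The shares are to be read against 10.2% risen and 12.9% fallen over all probe sets. The lists hold only probe sets with an informative name, and of the 3049 such tested probe sets 340 rose and 622 fell. Falls thus had a larger share among named probe sets than among all. Transport, with 13.3% and 15.8% of 240 probe sets, lay near the shares over all probe sets. Signalling, wall and storage lay above 10.2% in rises, and cell machinery lay far above 12.9% in falls. Set beside the named probe sets alone, the excess of falls in cell machinery was smaller. Transport, signalling, wall and storage then had lower shares of falls than the named probe sets. Counts of lists moved with the scaling. With scaling to the poly-A controls the risen and fallen shares were 6.67% and 14.6% in transport, 6.34% and 10.2% in wall, 9.79% and 15.0% in signalling, 5.13% and 8.97% in storage and 2.48% and 31.7% in cell machinery, against 3.41% and 12.8% of all probe sets. Falls then outnumbered rises in all 5 groups. Of 90 list counts 26 then moved by more than 1.5 times. Members of a list share sequence in part, so that a probe set may read more than 1 gene of a family. Genes with several tested probe sets and at least 1 call gave partly different readings: 86 had falls and uncalled probe sets, 55 rises and uncalled probe sets, 39 only falls, 17 only rises, 3 rises and falls, and 1 a rise, a fall and an uncalled probe set.

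The course before and after the step differed among the rises. These stage means are a description, with no test, because BCP and TCP arrays would be shared between neighbouring steps, and because the 6 MPG and GPG arrays stood apart in their hybridisation controls (geometric means of 8989 to 17347, against 2279 to 4228 on TCP and BCP arrays). On the deposited scale some rises went on. SWEET5 had means of 282 in UNMs, 275 in BCP and 48266 in TCP, and then 171667 in MPGs and 167843 in GPGs. CPK21 had 295, 66.2, 31709, 190511 and 181237 in the same order, and CSLD5 had 54.6, 54.6, 21177, 50464 and 38944. Whether these higher means in MPGs and GPGs go beyond the shift of the hybridisation controls was not tested. In another group TCP held the highest mean of all 8 tissues. SUT1 had 131 in UNMs, 701 in BCP and 7167 in TCP, and then 644 in MPGs and 484 in GPGs. MST5 had 66.7, 3302, 21338, 2150.0 and 2081 at these stages, and GWD3 had 960.4, 5501, 21390.2, 1996 and 677. The sugar carriers followed different courses, SWEET5 highest in mature grains and SUT1 and MST5 highest in TCP.

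Other named transcripts with their highest mean in TCP were CIPK20 (23649 in TCP, 392 in BCP and 7455 in MPGs), CBL9, CML11, CML28, MPK16, EXPA26, Cht4, Cht5, UGE-2, HAK15 and all 4 risen probe sets of SBE1. GF14B ran the other way, with 4366 in UNMs, 1249 in BCP, 414 in TCP and 8991 in MPGs. Of the 2840 rises with a TCP mean of at least 500, the highest of the 8 tissue means was in TCP for 712, in MPGs for 875, in GPGs for 885 and in leaf for 235. Of the 4369 falls with a BCP mean of at least 500, it was in UNMs for 1922, in BCP for 1097 and in callus for 604. Over these falls the stage means had medians of 2473 (UNMs), 1847 (BCP), 462 (TCP), 268 (MPGs) and 234 (GPGs). CIN3, ASA1, ASB1 and PDIL5-2 had their highest mean in BCP, and PDIL1-1, RPS4, AMT1 and CBL3 in UNMs among pollen stages.

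**Figure D5:**
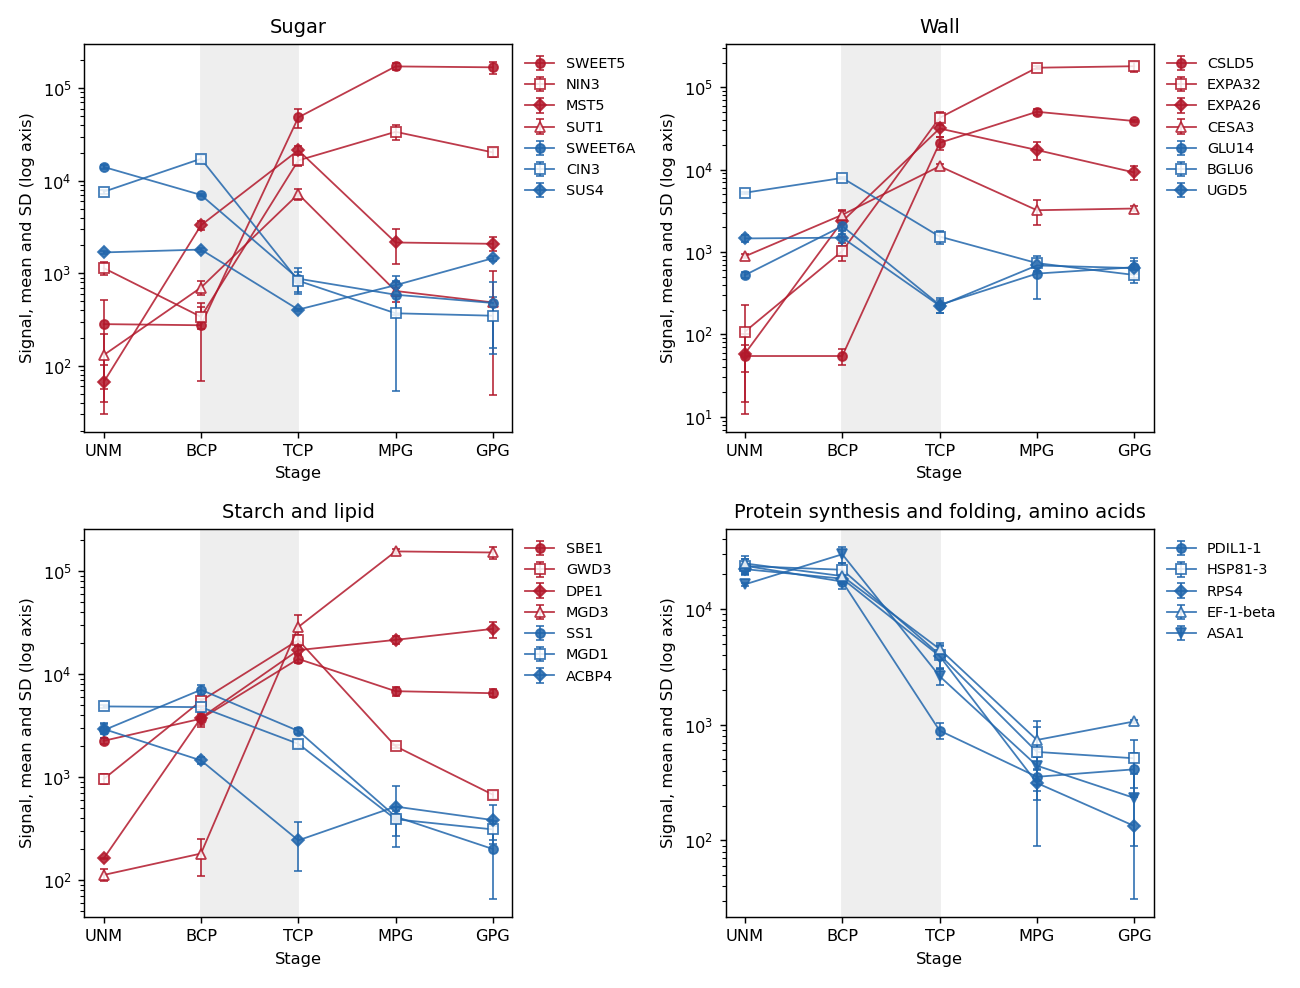
Mean signal (log scale, error bars SD, n = 3 arrays) of members in UNMs, BCP, TCP, MPGs and GPGs, in 4 panels for sugar, wall, storage and cell machinery genes, with the step between BCP and TCP shaded. SWEET5 and CSLD5 go on to higher means in MPGs on the deposited scale, and SUT1, MST5 and GWD3 are highest in TCP. Lower error bars that would reach 0 (SUT1 in GPGs, EXPA32 in UNMs) are drawn short.

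Set beside the sporophytic tissues, the rises and the falls differed in where else they were found. All 3 sporophytic means were under 200 for 48.5% of the rises and 11.1% of the falls, against 47.6% of all tested probe sets. CPK22, SWEET5 and CSLD5 belonged to these rises, with leaf means of 38.7, 36.3 and 40.1 and callus means of 50.9, 17.7 and 13.3. CPK21 did not, since callus also held it, with a mean of 10033 beside 164 in root and 29.4 in leaf. RPS4 (19316 in callus, 12858 in root) and PDIL1-1 (15610.4 in callus, 16016 in root) stood among the falls that dividing and vegetative tissues also held.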

How the data were processed

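Affymetrix Rice Genome Arrays were hybridised with RNA of 8 tissues, 3 arrays each. The deposited values are linear signal intensities, computed by the authors with GCOS and MAS5 according to the submitters' notes and scaled to a common trimmed mean of about 500 on each array. Columns were mapped by their sample labels, and 0 columns belonged to other series. Detection calls and scanned images were not used here, so no background limit per probe set was available. The number of arrays, 3 a group, limits the precision.

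From these values log2(signal + 50) was fitted with limma 3.58.1 in R 4.3.3, with 1 mean per tissue over 24 arrays (16 residual degrees of freedom) and the contrast TCP minus BCP. The methods of the study state no test between neighbouring stages. Probe sets with fewer than 3 arrays at or above a signal of 100 were left out. Calls were made at a Benjamini-Hochberg adjusted p below 0.05 together with at least 1 log2 unit of change in size. The fit was tested on simulated data. Python 3.11.15 with numpy 2.4.6, pandas 2.3.3 and matplotlib 3.10.9 drew up counts and figures.

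Genes were named from RefSeq through the array's probe annotation. It gives 1 gene for 22436 probe sets, several for 95 and none for 34727, and 3167 carry an informative name (2433 genes, 3049 probe sets tested). A few genes are named only through the study's supplementary annotation. Its lists were chosen on these same arrays, so the direction of these genes is no independent evidence. The 45 lists were built from names and are described by counts and medians, with no set test. The members and lists were chosen with earlier results of these data known.

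The naming rule takes, among called probe sets with 1 informative name and separate groups, the 10 with the largest rises and the 10 with the largest falls, then up to 4 per list and direction with a mean of at least 500 in the higher group, 1 probe set per gene, and the marker genes. From these a selection is printed. Other genes, including uncalled ones, those of the supplementary annotation and those of the closing section, were picked after their values were seen. No probe or promoter sequence was used here. Alternatives concerned the offset, the filter, the scaling, the arrays in the fit, a mean-variance trend, a replicate block and each left-out array. Group counts without the BURP list and without the amino acid and nucleotide list were added after seeing the data.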

Additional observations from a re-analysis of the deposited data

How the results depend on the processing

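The count of rises in TCP was 4874 and that of falls 6138. Under 13 alternatives that kept all TCP and BCP arrays rises ran from 1621 to 5481 and falls from 5278 to 8755. Scaling to the poly-A controls lowered the rises to 1621 (6106 falls), the cause of which was not tested, and no other alternative moved either of these totals by more than 1.5 times. The smaller counts of the lists were less stable: of 90 counts 26 moved by more than 1.5 times with the poly-A scaling, 16 at the same median, 10 after quantile normalization and 7 to 10 on leaving out an array. With the adjusted p alone and no minimum fold there were 6129 rises and 7248 falls. Leaving out each array in turn gave 4270 to 5691 rises and 5501 to 5858 falls, the most rises without the third TCP array. The replicate numbers did not pair the arrays: deviations of same-numbered TCP and BCP arrays had r of 0.085, −0.050 and 0.153, and a fit with the replicate number as a block gave 4917 rises and 6166 falls. Of 197 named probe sets 146 stayed past the limits under all 19 alternatives, 51 lost the call under at least 1 and none turned, with 34 lost under the poly-A scaling, 24 after quantile normalization and at most 13 under any other. Calls of IPK1, CML32 and ABCG39 were also lost at the same median (0.98, 0.97 and 0.96), and those of ITPK2 and SNRK1B after quantile normalization (−0.86 and −0.84). Low signals limit the folds: 1056 of the rises and 537 of the falls had a mean under 200 in the higher group.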

Other observations

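The families in this part were chosen after their values were seen, so their counts are descriptions of TCP over BCP. The oligosaccharyltransferase, the complex that attaches N-glycans to proteins entering the endoplasmic reticulum, was lower on all 11 of its tested probe sets, from 9 genes, and 10 of them fell (median −1.68). OST3 had 1945, 1648 and 3191 in TCP, against 10438, 9556 and 10416 in BCP (−2.20 ± 0.38, adjusted p = 0.000116), and the catalytic subunit gene STT3-B had 1881, 2189 and 2699.7 in TCP, against 8661, 7783 and 10563 in BCP (−1.98 ± 0.27). RPN-II, the ribophorin II gene, fell by 2.02. The exception was DAD-1, with 6899.7, 9169.7 and 7183 in TCP, against 13981, 14849 and 12607 in BCP (−0.84 ± 0.20), below the limit of 1.

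Ascorbate peroxidases, which remove hydrogen peroxide, fell on 4 of 10 probe sets and rose on none. APX4 had 381, 447 and 568 in TCP, against 4385, 5018 and 3384 in BCP (−3.06 ± 0.49), and APX7 had 1104, 1379 and 1368 in TCP, against 8881, 8519.9 and 7060.2 in BCP (−2.62 ± 0.21, adjusted p = 2.19e-09). APX2 was bright in both stages on its brightest probe set (51806 in TCP, 33281 in BCP) and not called. SAP genes, stress-associated proteins with A20/AN1 zinc fingers, rose on 5 of 17 probe sets and fell on none, SAP3 with 51504, 54439 and 39039 in TCP, against 11003, 10406 and 8977 in BCP (2.24 ± 0.20) and SAP6 with 12854, 13333 and 12151 in TCP, against 4572, 5325 and 4499.7 in BCP (1.41 ± 0.17). Among 15 tested probe sets of MADS-box transcription factors MADS27 rose on both of its probe sets, with 3564, 3445 and 3988 in TCP, against 6.9, 21.8 and 40.2 in BCP on the brighter 1 (5.69 ± 0.24, adjusted p = 8.4e-14), and MADS22 fell (−1.02 ± 0.26). Of 21 glutaredoxin probe sets 2 rose and 4 fell, with a median of −0.33. GRXS2 rose, with 2623, 3449 and 3308 in TCP, against 348, 444 and 440.4 in BCP (2.78 ± 0.25). GRXC8 fell, with 1124, 1369 and 1047 in TCP, against 14119, 12534 and 11285 in BCP (−3.37 ± 0.20).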
